A study of Rattus norvegicus with 7 samples.

Results

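The miR-34 family in rat liver was examined on 7 Agilent miRNA arrays, 1 rat per array. Its members were chosen by name alone, as the array's probes for rno-miR-34a, rno-miR-34b and rno-miR-34c and for their star arms, which gave 6 of the 677 rat miRNAs on the array, read by 14 probes. All animals were adult male Sprague-Dawley rats. The PFOS group (4 arrays) ate a diet with potassium perfluorooctanesulfonate (PFOS), a fluorinated surfactant, over 28 days with a dose of 50 mg per kg diet, and the Control group (3 arrays) ate the control diet over the same time. RNA was taken from whole frozen liver, so fewer cells of a type and less RNA per cell cannot be told apart. One dose and one time were studied, in a study of hepatic miRNAs and thyroid hormone balance.

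Members of the miR-34 family are direct transcriptional targets of the tumour suppressor p53. They repress genes that drive the cell cycle and survival, and miR-34a also represses the deacetylase Sirt1. In liver, miR-34a is the member usually studied, in DNA damage, fat accumulation and bile acid signalling. miR-34b and miR-34c are made from 1 shared transcript and are best known from testis, and from lung and other tissues with multiciliated cells.

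The mature sequences are shown because the family is defined by a common seed, bases 2 to 8 from the 5′ end, printed in capitals. All 6 members were matched by name to RefSeq entries (build GRCr8), a name without a star being taken as the 5p arm and a starred name as the 3p arm.
rno-miR-34a-5p: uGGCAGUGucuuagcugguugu
rno-miR-34b-5p: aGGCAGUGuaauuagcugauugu
rno-miR-34c-5p: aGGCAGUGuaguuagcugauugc
rno-miR-449a-5p: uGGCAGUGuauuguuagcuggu
rno-miR-449c-5p: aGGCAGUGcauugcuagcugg
The 5p arms of the 3 family genes had the same seed. Of 724 mature miRNAs in the RefSeq table, 5 had it, and the other 2 were those of the miR-449 genes, which are active in multiciliated cells. Compared base by base from the 5′ end without gaps, miR-34b-5p and miR-34c-5p were identical at 21 of 23 positions, and miR-34a-5p matched each of them at 11 of 22. The lower count does not show that miR-34a-5p diverged behind the seed. It is the shorter sequence, with 22 bases against 23. The stretch uuagcug follows the seed in all 3, but starts earlier in miR-34a-5p, so an ungapped comparison sets it out of step. No comparison with gaps was made.

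The star arms carry other seeds, and are shown to separate them from the 5p arms.
rno-miR-34a-3p: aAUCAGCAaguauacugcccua
rno-miR-34b-3p: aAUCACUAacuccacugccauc
rno-miR-34c-3p: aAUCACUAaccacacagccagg
Those of miR-34b and miR-34c share a seed with each other and not with that of miR-34a. The precursor of miR-34a is given with both arms in capitals, the 5p arm first, since only 1 of its arms was detected in these livers.
rno-mir-34a hairpin: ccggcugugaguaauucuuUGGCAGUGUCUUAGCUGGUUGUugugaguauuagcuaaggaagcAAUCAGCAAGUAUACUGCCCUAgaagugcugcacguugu
In the GRCr8 annotation the miR-34a gene lies on chromosome 5 within the uncharacterised gene LOC103692514, beside Gpr157. Those of miR-34b and miR-34c are neighbours on chromosome 8, within Hoatz and beside Btg4.

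Among the 6 members, miR-34a alone was detected. Detection meant that the scanner software flagged over 50% of a probe's spots as well above background, for at least 1 probe of the miRNA, once spots with an outlier flag had been left out. By that measure miR-34a was present on 4 of 4 PFOS and 3 of 3 Control arrays, with all 134 of its kept spots above background. The other 5 members were detected on 0 of 7 arrays. Of the 677 miRNAs on the array 458 were likewise detected on none, and 123 on all 7.

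The 5 undetected members gave signals at or near those of the negative control spots. Their values are processed signals, which are spot intensities after the software's background subtraction, averaged over a probe's spots. Probe means of miR-34a* ran from -3.62 to 0.046 and those of miR-34c* from -6.77 to -1.07. Those of miR-34c ran from -0.89 to 5.42, those of miR-34b from 0.57 to 9.32 and those of miR-34b* from -1.80 to 8.59. On the same arrays the negative control spots averaged 2.98 to 4.44, with a 99th percentile of 8.43 to 21.2. That percentile is of single spots, whereas the members' values are means over spots. Spots with an outlier flag were left out for the members but not for the negative controls. Some probe means of miR-34b, miR-34b* and miR-34c lay above the averages of the negative control spots. The readings of the 5 undetected members were thus at or near background in both diets, and no fold change is given for any of them.

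Single spots above background were rare in these 5 members. Of their 677 kept spots over the 7 arrays 2 were flagged (0.295%), against 33 of 3038 negative control spots (1.09%). Outlier-flagged spots were not left out of the negative controls, so the 2 shares were not filtered alike. One was a miR-34b spot on PFOS replicate 3 with a signal of 14.1, and the other a miR-34b* spot on PFOS replicate 2 with a signal of 15.1. The software's own gene flag called these 2 members detected on those arrays, which raised the count of detected members from 1 to 3. The 99th percentile of the negative control spots was 17.8 on the first of these arrays, above the spot's signal, and 8.43 on the second, below it.

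The summed signal of miR-34b* differed between arrays without reaching detection on any. It was 12.4, 14.8, 13.6 and -2.75 on PFOS replicates 1 to 4, and 6.06, 1.54 and 3.06 on Control replicates 1 to 3. PFOS replicate 4 was the lowest array of all and the other 3 PFOS arrays were the highest, so the groups overlapped. For miR-34b the PFOS values were 7.12, 8.62, 14.4 and 8.45 and the Control values 4.64, 7.31 and 8.22. PFOS replicate 3, the array with the highest median signal, was the highest, and the groups overlapped here too.

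**Figure D1:**
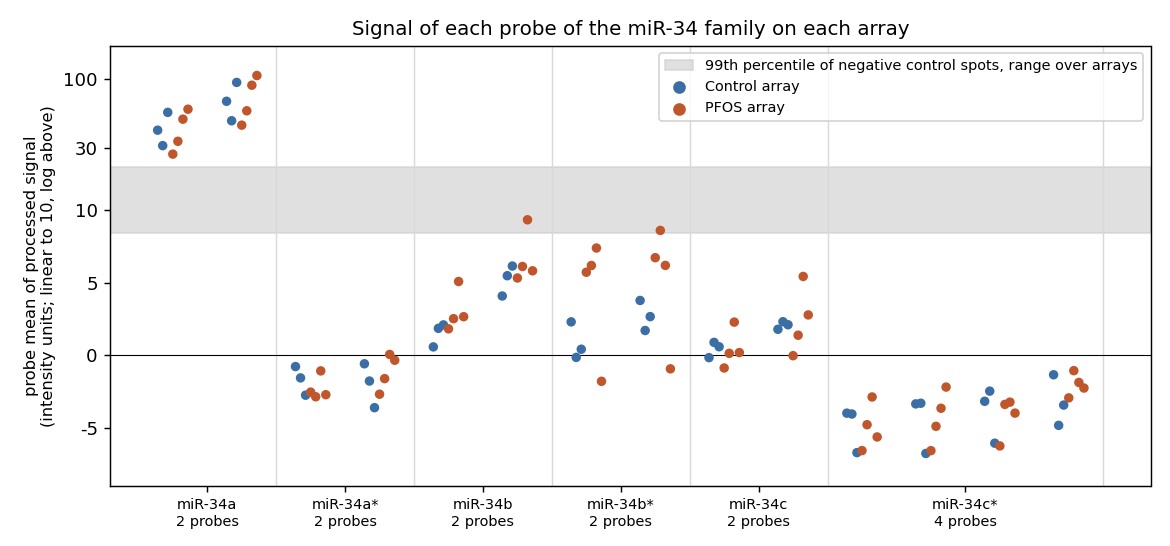
Probe mean of the processed signal (vertical axis, intensity units, linear up to 10 and logarithmic above) for each of the 14 probes on each of the 7 arrays, with Control arrays in blue, PFOS arrays in orange and the 99th percentile of the negative control spots (8.43 to 21.2) as a grey band. Both probes of miR-34a lie above the band on every array, from 26.7 to 107, and no probe mean of another member rises above the top of the band, while 1 miR-34b* probe (8.59 on PFOS replicate 2) exceeds the 99th percentile of its own array (8.43).

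The miR-449 miRNAs, which carry the seed of the family, were not detected on any of the 7 arrays either. For miR-449a the summed signal ran from -6.40 to 0.66 and for miR-449c-5p from -15.2 to -5.73, and 0 of 139 and 0 of 140 spots were above background. The markers of multiciliated epithelium on the array (miR-34b, miR-34c, miR-449a and miR-449c-5p) were therefore all detected on 0 of 7 arrays. The liver label was checked on miR-122, miR-192 and miR-194, the miRNAs that mark hepatocytes, and all 3 were detected on all 7 arrays.

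After normalization, miR-34a was lower in PFOS livers, by an amount that did not pass the test over all miRNAs. Here the probes of a miRNA were summed, each array was scaled so that the 75th percentile of the miRNAs detected throughout was the same, and cyclic loess, a smooth correction between pairs of arrays, was applied. The normalised signal of miR-34a was 71.2, 75.6, 93.0 and 129 in PFOS replicates 1 to 4. It was 137, 119 and 186 in Control replicates 1 to 3. PFOS replicates 1 to 3 lay below all Control livers, whereas PFOS replicate 4 lay above Control replicate 2, so the groups overlapped.

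The mean signal of miR-34a was 92.2 ± 26.3 (SD, n = 4) in PFOS livers and 147 ± 34.7 (SD, n = 3) in Control livers. The log2 difference was -0.69 (SE 0.25, unadjusted 95% interval -1.29 to -0.08), a PFOS level 0.621 times that of Control. In limma's moderated test the unadjusted p was 0.0311, and after Benjamini-Hochberg adjustment over the 175 tested miRNAs the adjusted p was 0.224, above the threshold of 0.05. An exact two-sided permutation of the 7 arrays over 35 splits gave p = 0.0857, where the smallest possible value was 0.0286. Of the tested miRNAs 0% passed at the adjusted threshold, and 10.9% were lower in PFOS livers at an unadjusted p under 0.05. With that share as background, the unadjusted p of miR-34a is 1 of 19 such values.

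The lower level rested on the scaling between arrays. Before any scaling the summed signal of miR-34a was 71.3, 90.9, 139.6 and 166 in PFOS replicates 1 to 4 and 109, 79.2 and 150.5 in Control replicates 1 to 3. These groups covered the same range, with means of 117 ± 43.5 (SD, n = 4) and 113 ± 35.8 (SD, n = 3). The log2 difference was 0.022, with an exact two-sided permutation p of 1 over the 35 splits. Brightness differed between the groups. The median unscaled signal of the miRNAs detected on all arrays was 226 to 326 on PFOS and 133 to 176 on Control arrays, and the labelling spike-in, added in equal amount to each sample in this kind of assay, read 6570 to 10686 against 3431 to 3659. The part of array brightness in the result was not tested. The median of the tested miRNAs was 0.69 before scaling, 0.04 after scaling alone and -0.02 after scaling and loess. Measured against that median, miR-34a stood at nearly the same log2 value in each, -0.67, -0.68 and -0.67. Scaling by 1 factor per array shifts miR-34a and that median together. The scaling step could therefore not change this amount, and its likeness before and after is no separate evidence of a lower level.

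**Figure D2:**
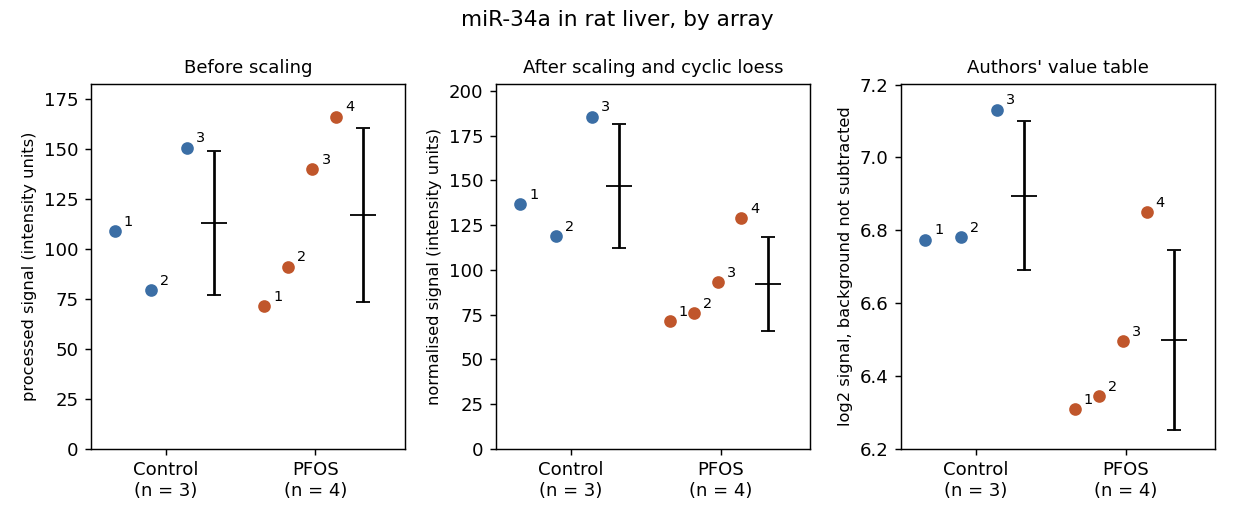
Signal of miR-34a on each array before scaling (left), after scaling and cyclic loess (middle) and in the authors' deposited log2 table (right, an axis that does not start at 0), with replicate numbers beside the points and mean ± SD as bars (3 Control and 4 PFOS arrays). The groups cover the same range before scaling, and after it PFOS replicates 1 to 3 (71.2 to 93.0) lie below the lowest Control array (119) and PFOS replicate 4 (129) above it.

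Both probes of miR-34a gave the same direction. They are 2 designs against 1 mature sequence, so they share their target and are not replicates. With only the dimmer probe kept for miR-34a, its normalised signal was 28.8, 26.0, 32.2 and 45.3 in PFOS replicates 1 to 4 and 50.2, 48.0 and 70.6 in Control replicates 1 to 3. For this probe the groups did not overlap. Over all 175 tested miRNAs, 9.71% were lower in PFOS livers without overlap. The log2 difference was -0.78 (SE 0.23, limma adjusted p = 0.126). With only the brighter probe, the values were 46.2, 45.9, 60.1 and 82.6 in PFOS replicates and 83.7, 72.3 and 119.5 in Control replicates. There PFOS replicate 4 lay above Control replicate 2, and the log2 difference was -0.66 (SE 0.27, limma adjusted p = 0.254).

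The spread between arrays of a group was also set beside the error between spots of an array. The ratio of the brighter to the dimmer probe stayed between 1.55 and 1.82 on the 7 arrays. Each probe was read by 8 to 10 kept spots an array, whose coefficient of variation was 9.90% in the median. The standard error that this gives for the summed signal of miR-34a was 1.39% to 2.64%. Between arrays of 1 diet the coefficient of variation of the normalised signal was 28.5% in PFOS and 23.6% in Control. With 1 array per rat, differences between livers and errors of labelling, hybridisation and scaling cannot be told apart in it.

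The direction was kept in 36 of 37 other fits of miR-34a, and 0 of the 37 passed the adjusted threshold in limma (adjusted p from 0.0711 to 0.954). The 1 positive value was the unscaled one. The fits are not separate checks, as all draw on the same 7 arrays. Those that changed only the detection filter or the eBayes settings could not move the difference of -0.69. Some fits with slide row as a block repeated the value found without it when the same array was left out. The size depended on how background and scale were treated. It was -0.28 with normexp background correction (SE 0.13), -0.33 with the median pixel signal from which no background was subtracted (SE 0.15), and -0.42 with scaling to the 75th percentile of all miRNAs (SE 0.36). The most negative value, -1.11 (SE 0.33), came from scaling by the labelling spike-in, under which the median of all tested miRNAs was -0.43. With equal weight for every miRNA in the loess the value was -0.34 with an SE of 2.38, which carries no information on size.

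In the authors' deposited table the log2 signal of miR-34a was 6.31, 6.34, 6.49 and 6.85 in PFOS replicates 1 to 4 and 6.77, 6.78 and 7.13 in Control replicates 1 to 3. The order of the arrays was nearly that of the normalised signal, and PFOS replicate 4 again lay within the Control range. Fitted with limma, these values gave -0.40 (SE 0.15, adjusted p = 0.169). The table followed the signal from which no background was subtracted.

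Leaving out each array in turn moved the log2 difference between -0.86 and -0.47, with limma adjusted p between 0.251 and 0.469. Without PFOS replicate 4, the only PFOS array above a Control array, it was most negative. Without Control replicate 3, the liver with the highest signal, it was nearest 0. The arrays lay in 2 rows of 1 slide. Within the first row, 2 PFOS arrays against Control replicate 1, the difference was -0.90, and within the second row, 2 against 2 arrays, it was -0.44. With slide row as a block it was -0.62 (SE 0.22, limma adjusted p = 0.219).

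**Figure D3:**
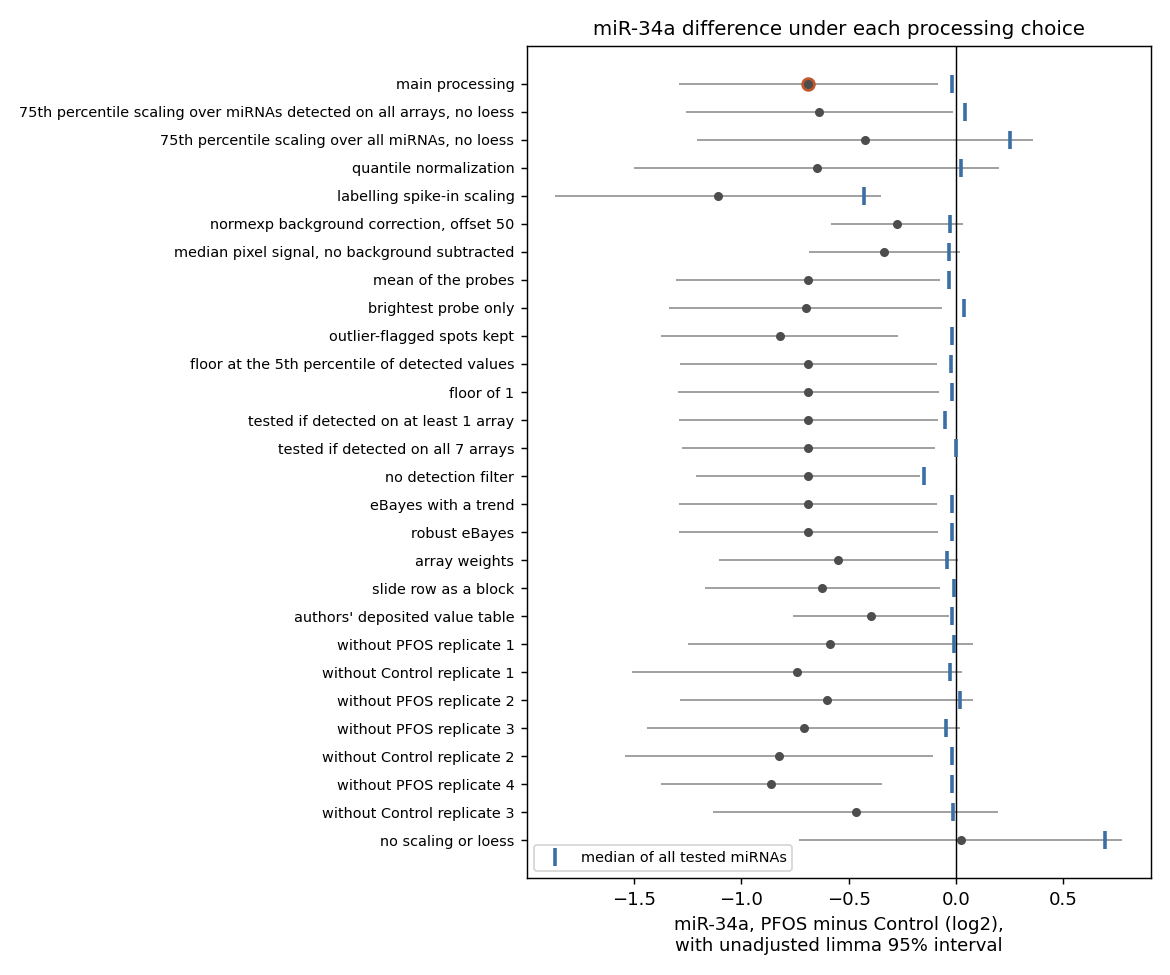
Log2 difference of miR-34a, PFOS minus Control (horizontal axis), with unadjusted limma 95% intervals under each processing choice, the main processing in orange and the median of all tested miRNAs as a blue tick. Cyclic loess with equal weights, whose SE was 2.38, is not drawn. Every value lies below 0 except the unscaled one (0.022), and that one lies below its own blue tick (0.69). Scaling by 1 factor per array shifts a value and its tick together.

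Among the 175 tested miRNAs miR-34a had the 9th most negative log2 difference and the 23rd smallest p. Its SE of 0.25 compared with a median SE of 0.14. The 5 tested miRNAs closest to it in mean signal were miR-32*, miR-28, miR-150*, miR-144 and miR-200b. Their SEs ran from 0.10 to 0.75 and their log2 differences from -1.18 (miR-32*, SE 0.75) to 1.81 (miR-200b, SE 0.48). For miR-28 the difference was 0.00 (SE 0.10). The SE of miR-34a lay inside the range of these 5.

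**Figure D4:**
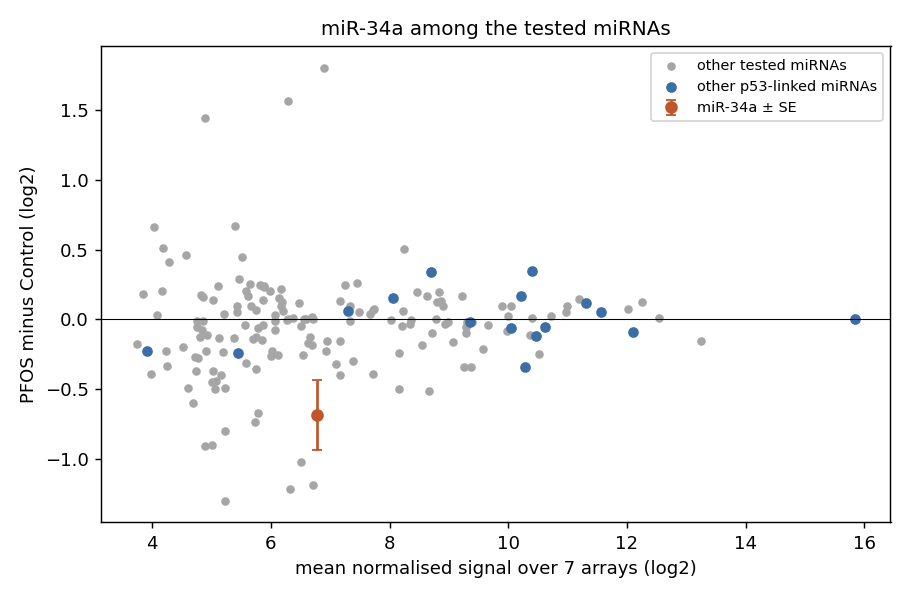
Log2 difference, PFOS minus Control, against the mean normalised log2 signal over the 7 arrays for the 175 tested miRNAs, with miR-34a in orange (bar, SE 0.25) and the other tested p53-linked miRNAs in blue. miR-34a (-0.69) lies below all of the other p53-linked miRNAs and above 8 of the tested ones.

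The miRNAs whose profile over the 7 arrays was most like that of miR-34a were found by the root mean square difference of log2 values, each miRNA being centred on its own mean. They were miR-99a* (0.24), miR-350 (0.28), miR-125b-5p (0.35), miR-140 (0.364) and miR-122* (0.365). The likeness was limited. For miR-125b-5p, miR-140 and miR-122* the log2 differences between diets were -0.06, -0.15 and -0.25, smaller in size than the -0.69 of miR-34a. This is a description of 7 arrays that share the contrast of diets, with no test. miR-99a* had normalised signals of 30.7, 23.3, 32.6 and 33.0 in PFOS replicates 1 to 4 and 37.8, 34.3 and 50.3 in Control replicates 1 to 3. As with miR-34a, Control replicate 3 was the highest liver and PFOS replicate 4 the highest PFOS liver, but here the groups did not overlap. Of all 175 tested miRNAs, 9.71% were lower in PFOS livers without overlap. Its detection was partial, on 3 of 4 PFOS and 1 of 3 Control arrays, and that of miR-350 was 3 of 4 and 0 of 3, so part of both profiles was read at background. miR-125b-5p, which targets the p53 transcript itself, had signals of 932, 876, 1204 and 1181 in PFOS and 979, 972 and 1330 in Control livers. Control replicate 3 was again the highest, and the groups overlapped.

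Other miRNAs linked to p53 had differences of both signs, and none passed the adjusted threshold in limma. The list, which was made with earlier results of these data known, held 15 miRNAs reported as transcribed or matured under p53, of which 14 were on the array and 9 were tested. One of the 9, miR-145, was detected in 3 of 4 PFOS and 0 of 3 Control livers, so it was tested only through the PFOS arrays and has no fold. Of the other 8, 6 had a negative and 2 a positive log2 difference and 0 passed the adjusted threshold. Their median was -0.07, against -0.02 over the 165 tested miRNAs that were likewise detected in both groups. Without miR-34a it was -0.05 over 7. At an unadjusted p under 0.05, 2 of the 8 were lower (miR-34a and miR-23b) and 1 was higher (miR-107). Of the 165 tested miRNAs detected in both groups, 17 were lower and 13 higher. Over all 175 tested miRNAs the shares were 10.9% and 8.57%. The family was part of this list, and miR-34b, miR-34c, miR-215, miR-200c and miR-141 were detected on no array.

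miR-192 and miR-194, hepatocyte miRNAs that p53 can induce, had log2 differences of -0.09 (SE 0.07) and -0.12 (SE 0.08). miR-23b had the smallest p of the list, with signals of 1093, 1164, 1100 and 1129 in PFOS replicates 1 to 4 and 1515, 1427 and 1327 in Control replicates 1 to 3. Its groups did not overlap, where 9.71% of all 175 tested miRNAs were lower without overlap. The log2 difference of miR-23b was -0.34 (SE 0.07, limma adjusted p = 0.131). miR-107 went the other way, with 500.0, 479, 430.3 and 434 in PFOS and 404, 343 and 345 in Control livers, a log2 difference of 0.34 (SE 0.10, limma adjusted p = 0.132). miR-16, miR-26a and miR-143 had values of -0.05 (SE 0.12), 0.06 (SE 0.06) and -0.02 (SE 0.14).

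A second list held 8 miRNAs reported to act on p53 or its regulators, all of them tested. Of these 6 had a positive and 2 a negative log2 difference, 0 passed, and the median was 0.09. miR-29c, which raises p53 activity through its regulators, had the largest, 0.35 (SE 0.08, limma adjusted p = 0.131), and its signal ran from 1371 to 1613 in PFOS and from 1155 to 1199 in Control livers. Its relatives miR-29b and miR-29a had 0.17 (SE 0.07) and 0.12 (SE 0.11). The miRNAs that target the p53 transcript had values of 0.06 (miR-25, SE 0.09), 0.15 (miR-30d, SE 0.08), -0.24 (miR-125a-5p, SE 0.13) and -0.06 (miR-125b-5p, SE 0.17). miR-122, the most abundant hepatocyte miRNA, had 0.0042 (SE 0.06). Of the 17 tested miRNAs in both lists 0 passed with the main processing, against 4 in the authors' deposited table (miR-122, miR-192, miR-194 and miR-23b, all lower), where 5.14% of all tested miRNAs passed. With normexp and with the median pixel signal 2 passed (miR-23b and miR-29c), where 12.6% and 11.4% of all tested miRNAs did. Without scaling 8 passed, where 30.3% of all did. miR-34a was called in none of these.

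**Figure D5:**
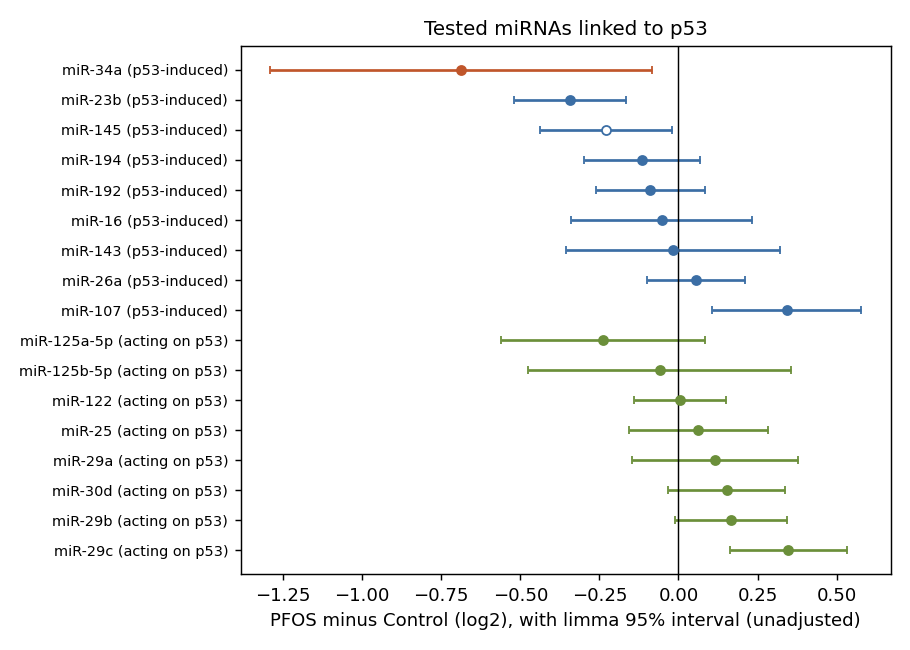
Log2 difference, PFOS minus Control (horizontal axis), with unadjusted limma 95% intervals for the 17 tested p53-linked miRNAs, with miR-34a in orange, other p53-induced miRNAs in blue and those acting on p53 in green. The open point is miR-145, above background on no Control array, whose position is no measure of a fold. miR-34a (-0.69) is the most negative and has the widest interval (-1.29 to -0.08).

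Markers of other liver cells were read beside miR-34a. The epithelial miRNAs miR-200a and miR-200b had log2 differences of 1.57 (SE 0.37) and 1.81 (SE 0.48), neither past the adjusted threshold (limma adjusted p = 0.131 for both), and miR-429 was above background on no Control array. The normalised signal of miR-200a was 97.9 to 181 in PFOS and 24.4 to 64.9 in Control livers. For miR-200b it was 155 to 290 and 26.5 to 100.2. The summed normalised signal of the hepatocyte miRNAs was 63020 to 65880 in PFOS and 64173 to 65266 in Control livers. In the authors' deposited table miR-122, miR-192 and miR-194 were all called lower in PFOS livers, where 5.14% of all tested miRNAs passed. Most of the normalised sum was miR-122 on every array, and scaling and loess act on it too. A near-equal sum is therefore no separate measure of hepatocyte content. Leukocyte miRNAs had a median of -0.02 over 3 tested (miR-223 at -0.23, SE 0.09), stellate cell and fibroblast miRNAs of -0.04 over 3 without miR-145 (miR-214, among them, was detected on 1 of 3 Control arrays), and erythroid miRNAs of -0.10 over 2. Endothelial miR-126 had 0.02 (SE 0.09). The part of cell composition in the level of miR-34a was not tested.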

How the data were processed

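Labelled total RNA was hybridised to 1-colour Agilent rat miRNA arrays. Per the labels, 4 rats a group were hybridised, and the submitters dropped 1 Control array at their quality control. Spot intensity values were made with Agilent Feature Extraction 10.7.3.1, per the file headers, and the processed signal was used. All arrays were on 1 slide with 1 scan time. The authors' deposited values are log2 signals after cyclic lowess, per the labels. Across miRNAs it followed the unsubtracted median signal (r of 0.9987 to 0.9999, across genes that are not independent replicates). Its column medians were 5.50, 5.50, 5.48, 5.50, 5.51, 5.50 and 5.51, it was not centred per miRNA, and the sources used here do not give the lowess settings.

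Spots with outlier flags were left out for the miRNAs, whereas all negative control spots were kept. After scaling, a floor of 12.1, the 1st percentile over detected miRNAs, was applied. Cyclic loess (limma 3.58.1 in R 4.3.3, span 0.7, 3 iterations) gave weight to 123 miRNAs, those detected on every array. The test (lmFit and eBayes) took in 175 miRNAs, those detected on every Control array or on 3 or more PFOS arrays (6.51 degrees of freedom). Other tools were jsonlite 2.0.0, data.table (version 1.17.8), Python 3.11.15 and matplotlib 3.10.9. The fit was tested on simulated data.

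The members, lists, tests and alternatives were chosen with earlier results of these data known. Named are all members, the tested p53-linked miRNAs, those sharing the seed, and the 5 closest to miR-34a in profile and in mean signal. Replicate numbers only name arrays. The number of arrays limits the precision.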

Additional observations from a re-analysis of the deposited data

Results flagged for a closer look

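Over the 4 PFOS arrays, 32 measures were examined for 1 array standing apart from the rest. The gap to the nearest array, divided by the whole range, was compared with Dixon's 95% critical value. Chance gives such a gap in about 1 of 20 groups. The value was passed 3 times, and each time the array was PFOS replicate 4. For the summed processed signal of miR-34b* the ratio was 0.866 (-2.75 against 12.4 to 14.8), although this arm was detected on no array. For miR-350, which had the second most similar profile to miR-34a, it was 0.867 (16.4 against 13.0 to 13.4 in normalised signal). These signals lay near the floor of 12.1, and miR-350 was detected on 3 of 4 PFOS arrays. For miR-29b it was 0.870 (1177 against 1262 to 1276 in normalised signal).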

How the results depend on the processing

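With the main processing limma called 0 of 175 miRNAs at an adjusted p under 0.05 and 34 at an unadjusted p under 0.05, and it called 0 of the 17 p53-linked miRNAs. The count over all miRNAs was 3 with each array's 75th percentile taken over all miRNAs (3 higher, 0 lower), 8 under labelling spike-in scaling (0 and 8), 22 with normexp (6 and 16), 20 with the median pixel signal (5 and 15), 4 with slide row as a block (3 and 1), 9 in the authors' deposited table (0 and 9), and 1 both without a detection filter and when detection on 1 array sufficed (each 0 and 1). Without scaling or loess, an alternative added after seeing the data, it was 53 (53 and 0). The p53-linked count was 2 with normexp, 2 with the median pixel signal, 4 in the deposited table and 8 without scaling. The difference of miR-34a turned to 0.022 without scaling. Leaving out each array gave -0.86 to -0.47 for miR-34a, 0 to 0 calls over all miRNAs and 0 to 0 in the p53-linked list. With slide row as a block as well, also added later, miR-34a ran from -0.82 to -0.46. The detected members numbered 3 where any 1 spot sufficed and 3 by the software's gene flag, against 1. Causes of these shifts were not tested. No paired analysis was possible because the labels give rats of different groups no shared number. Signal over background limits the 5 undetected members, which were read at or near background.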
